A study of Mus musculus with 14 samples.

Results

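The comparison sets T helper 17 (Th17) cells made with TGF-β against Th17 cells made with IL-23, across 10963 genes, in 4 of the 14 RNA-sequencing libraries of a series on mouse CD4+ T cells in 7 culture media. All cells were naive CD4+ T cells, CD44-low and CD25-, from C57BL/6 mice, activated for 3 days on plates coated with antibodies to CD3 and CD28, each at 10 µg/ml. The medium labelled Th17_b held TGF-β at 2 ng/ml, IL-6 at 20 ng/ml and antibodies that block IFN-γ and IL-2, the latter at 10 µg/ml. The medium labelled Th17_23 held IL-1β at 20 ng/ml, IL-6 at 20 ng/ml and IL-23 at 50 ng/ml. It also held antibodies to IFN-γ and to IL-2, the latter with no dose in the labels, and 2 antibodies to TGF-β, each at 5 µg/ml. Both media thus share IL-6 and antibodies to IFN-γ and IL-2, though the dose against IL-2 is known for Th17_b alone. They differ in TGF-β, added in Th17_b and blocked in Th17_23, in IL-1β and in IL-23 at once. No difference below can therefore be set against 1 of these cytokines. Each medium has 2 libraries, 1 in each of 2 deposited tables. The other media were Th0, Th1 (with IL-12 at 20 ng/ml), Th2 (with IL-4 at 20 ng/ml) and iTreg (with IL-2 at 50 U/ml and 20 ng/ml of TGF-β). A further medium held IL-27 at 20 ng/ml with TGF-β at 2 ng/ml.

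Th17 cells make IL-17A and IL-17F, cytokines that act on epithelium and stroma and draw neutrophils. IL-6, acting through STAT3, drives this fate together with TGF-β, or together with IL-1β and IL-23 where TGF-β is blocked. Cells of the first kind can make IL-10 and cause little tissue damage in mouse models of autoimmunity, and cells of the second kind are known as pathogenic Th17 cells, which make the colony stimulating factor GM-CSF and drive such disease.

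Values are FPKM, fragments scaled by transcript length and library size, summed over the transcripts of a gene. Changes were formed on the log2(FPKM + 1) scale within each table as Th17_b minus Th17_23, so a positive change is higher in Th17_b and a negative one higher in Th17_23. The scale understates the change of low genes. The genes described average at least 1 FPKM in one medium or the other: 334 of the 10963 entered through Th17_b alone and 478 through Th17_23 alone, and such genes tend to differ by the way they entered. A gene was called at a Benjamini-Hochberg adjusted p under 0.05 in limma. Levels are given for both libraries of a medium, or as their mean (n = 2) where 1 value stands for a medium. Changes are given ± SE, and the SE of the genes named lies between 0.06 and 0.56 with a median of 0.16. Whether the replicates are separate mice or wells is not stated, and the p-values reflect only how far such libraries lie apart, which may be technical. In bulk RNA, more cells of a kind and more RNA per cell cannot be told apart.

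The 4 libraries were alike in the number of genes detected and in the agreement of replicates. Their summed FPKM was 442686 and 475109 in Th17_b and 485011 and 515389 in Th17_23. Each held 10438 to 10667 genes with at least 1 FPKM, and the steps of the lowest values put their relative depth at 0.750 to 1.00 of the deepest. Replicates correlated at 0.988 in Th17_b and 0.989 in Th17_23 across genes. Of 8 CD4 T cell markers, all 8 were at 1 FPKM or more in each medium, and they summed to 1800 and 1927 FPKM in Th17_b and 1573 and 1655 in Th17_23. Defining markers of B, myeloid, natural killer, red blood and mast cells stayed near 0, apart from Ebf1 (0.0580 and 0.0464 against 2.98 and 5.09 FPKM) and Cd68 (3.19 and 3.47 against 3.89 and 5.24 FPKM). Among dendritic cell markers, Clec9a and Cd209a were listed at 0 in all 4 libraries, and the class II gene H2-Ab1 was at 6.60 and 9.12 against 16.8 and 18.3 FPKM. The 8 B cell markers summed to 0.802 and 0.299 FPKM in Th17_b and 3.58 and 5.75 in Th17_23, nearly all of it from Ebf1.

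Most genes differed between the media. Of the 10963 genes, 6277 (57.3%) were called: 2652 (24.2%) were higher in Th17_b and 3625 (33.1%) higher in Th17_23. With a log2 change of 1 or more, 479 (4.37%) were called higher in Th17_b and 573 (5.23%) higher in Th17_23, and 126 and 128 of them differed by 2 or more. All 6277 called genes moved the same way in both tables, and 881 of the 1052 with a large fitted change reached 1 in each table. A fitted change is the mean of the changes in the 2 tables. Calls thus favour genes that moved alike in both, so this is no separate check. The median change over all genes described was -0.07, with quartiles at -0.38 and 0.22. Only 26 genes with a change of 1 or more were not called, and 21 of these were short microRNA and small nucleolar RNA genes with uneven values between replicates. With calls this frequent, the size of a change says more than the call. A lack of overlap between the libraries of the media follows readily from a large change, and its share over all genes was not counted. Where stated below, it is no evidence beyond the call.

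**Figure D1:**
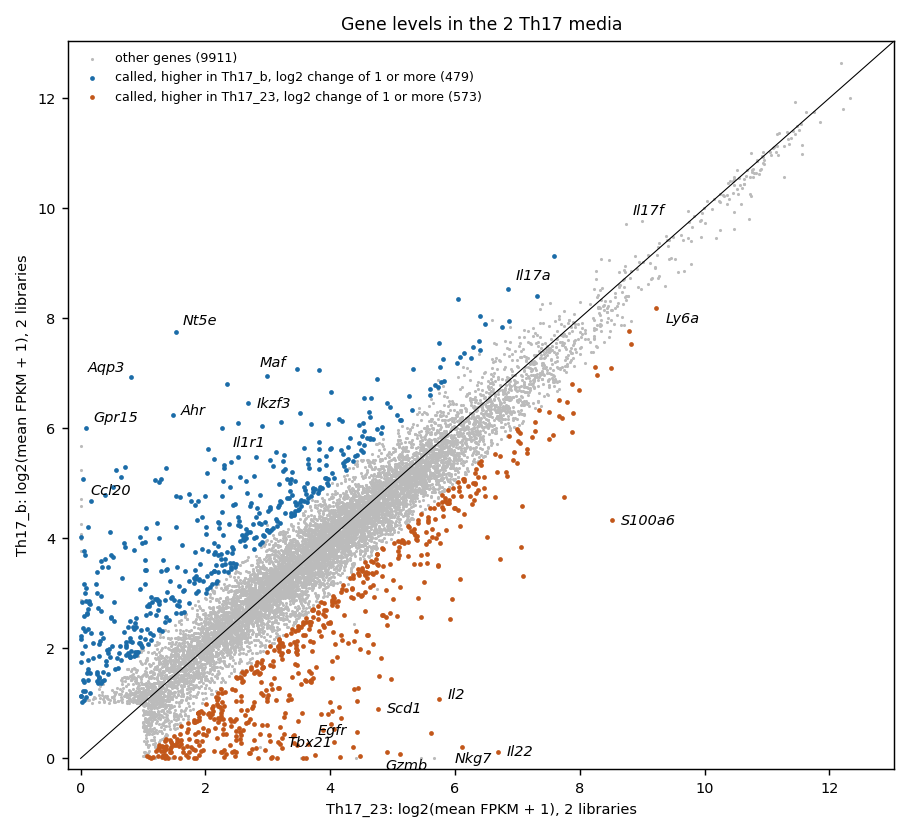
Mean level of each of the 10963 genes in Th17_b (vertical axis) and Th17_23 (horizontal axis), as log2(mean FPKM + 1) over 2 libraries. Points far above the diagonal, such as Nt5e and Gpr15, were high in Th17_b alone, and points along the bottom, such as Il22 and Gzmb, in Th17_23 alone.

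Both media made Th17 cells, and the hallmark cytokines were highest with TGF-β. Il17a, which encodes IL-17A, stood at 286 and 448 FPKM in Th17_b and 91.3 and 138 in Th17_23 (log2 change 1.67 ± 0.21, adjusted p = 1.8e-04). Il17f, its close relative and partner, stood at 763 and 906 FPKM in Th17_b and 363 and 488 in Th17_23, and its change of 0.98 ± 0.23 (adjusted p = 0.0052) was the smaller of the pair. Without Th17_b replicate 2 or Th17_23 replicate 1 the change of Il17f was 0.74 and 0.64 and missed the threshold (adjusted p = 0.054 and 0.055). The libraries did not overlap for either gene, and in the other 5 media Il17a lay at a mean of 0.149 FPKM or less. Il21, a cytokine that helps Th17 cells sustain themselves, was at 46.5 and 71.2 FPKM in Th17_b and 42.1 and 37.8 in Th17_23 and was not called (log2 change 0.52 ± 0.29, 95% interval -0.14 to 1.18, adjusted p = 0.16). Il23r, the receptor chain for IL-23, was likewise not called at 12.1 and 16 against 11.8 and 10.3 FPKM (log2 change 0.31 ± 0.15, 95% interval -0.02 to 0.64), but without Th17_b replicate 1 it was called higher in Th17_b (0.49, adjusted p = 0.045).

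IL-22 parted the media more than any other gene. Il22, a cytokine that acts on epithelial cells, was at 0.0538 and 0.108 FPKM in Th17_b and 83.8 and 121 in Th17_23 (log2 change -6.55 ± 0.13, adjusted p = 9.1e-09), the largest change in the comparison. Its copy Iltifb, which shares 97.4% of 1110 aligned transcript bases with Il22, was at 0.0262 and 0 FPKM in Th17_b and 14 and 19.8 in Th17_23 (log2 change -4.12 ± 0.13). Reads from such copies can be assigned to either, so the split between them is uncertain and their joint direction is what the values show. Il24, an IL-10 family cytokine like IL-22, was listed at 0 in both Th17_b libraries and at 4.40 and 18.1 FPKM in Th17_23 (adjusted p = 3.2e-04). IL-10 itself ran the other way: Il10 was at 4.43 and 1.12 FPKM in Th17_b and 0.0223 and 0 in Th17_23 (log2 change 1.75 ± 0.36, adjusted p = 0.0027); the Th17_b replicates lay far apart but above both Th17_23 libraries.

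The transcription factors of the Th17 program were mostly higher in Th17_b. Rora, which encodes the nuclear receptor RORα, was at 44.2 and 30.2 FPKM in Th17_b and 9.83 and 7.50 in Th17_23 (log2 change 1.97 ± 0.16). Ahr, the ligand-activated aryl hydrocarbon receptor, was at 85.1 and 63.5 FPKM in Th17_b and 2.20 and 1.39 in Th17_23 (log2 change 4.75 ± 0.30, adjusted p = 2.7e-06). Maf, which encodes c-Maf, a driver of IL-10, was at 127 and 119 FPKM in Th17_b and 7.97 and 5.90 in Th17_23 (log2 change 3.97 ± 0.11). Ikzf3, which encodes the Ikaros family factor Aiolos, was at 96.4 and 78.6 FPKM in Th17_b and 6.16 and 4.64 in Th17_23 (log2 change 3.79 ± 0.16). All of these separated the media without overlap. The pioneer factors that open Th17 genes differed far less: Irf4 was at 162 against 109 FPKM (log2 change 0.56 ± 0.10) and Batf, its AP-1 partner, at 89.6 against 137 FPKM (log2 change -0.60 ± 0.12, higher in Th17_23). Stat3, at 104 against 92.4 FPKM, was not called (log2 change 0.17 ± 0.09, adjusted p = 0.13), though it was under quantile normalization (0.36, adjusted p = 0.0016).

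Surface and secreted genes of Th17 cells were also higher in Th17_b. Ccl20, the chemokine that draws cells bearing CCR6, was at 20.4 and 44.9 FPKM in Th17_b and 0 and 0.0483 in Th17_23 (log2 change 4.94 ± 0.33, adjusted p = 3.5e-06). Ccr6, its receptor, was at 49.2 and 46.8 FPKM in Th17_b and 1.64 and 4.59 in Th17_23 (log2 change 3.67 ± 0.31). The membrane protein genes Tmem176a and Tmem176b, neighbours that are high in Th17 cells, were at 33.8 against 0.570 FPKM and 38.4 against 0.641 FPKM, and Il17re, a receptor chain for IL-17C, at 9.48 against 0.196 FPKM (log2 change 3.13 ± 0.18). Of 26 genes on the list of the Th17 program, all of which were measured at 1 FPKM or more, 18 were called higher in Th17_b, 5 higher in Th17_23 and 3 were not called, with a median change of 0.93 beside -0.07 over all genes. Called over all genes were 24.2% toward Th17_b and 33.1% toward Th17_23. The 5 were Il22, Il24, Nfkbiz (-1.54), which encodes IκBζ, Sox5 (-1.28) and Batf.

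**Figure D2:**
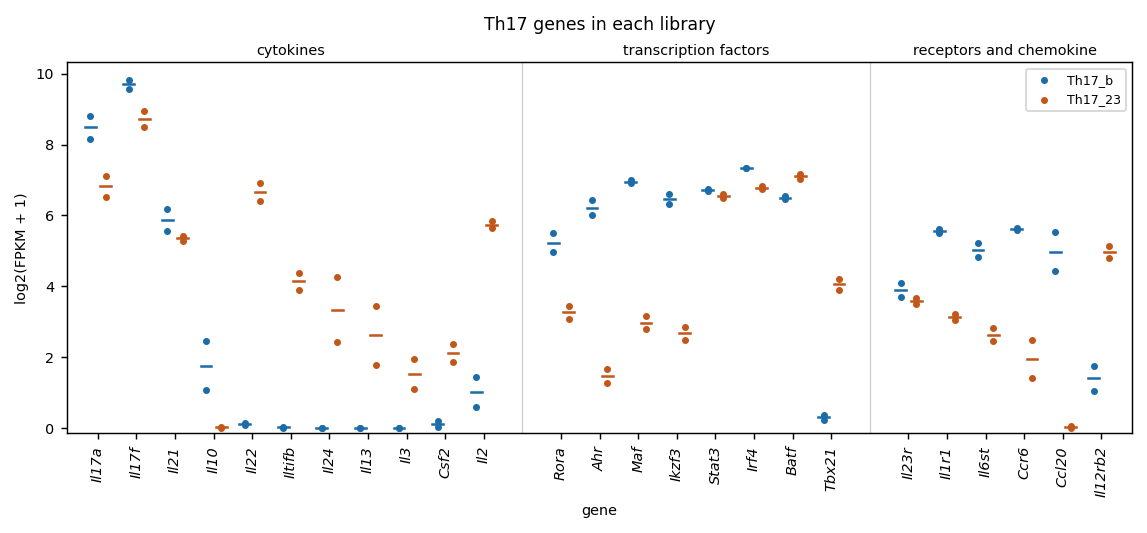
Level of 25 Th17-related genes in each library, as log2(FPKM + 1), with Th17_b in blue and Th17_23 in orange; points are libraries and lines their means. Il17a and Il17f were high in both media, Ahr, Maf and Ccl20 higher in Th17_b, and Il22, Il24, Csf2 and Il2 lay near 0 in Th17_b and higher in Th17_23.

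The stretches just before the starts of 6 genes that carry these contrasts follow, 250 bases each up to the base before the RefSeq start, from RefSeq on GRCm38.p6 and not on the build of the expression values. The 4 genes higher in Th17_b are the cytokine pair, Ccl20 and the aryl hydrocarbon receptor target Cyp1a1, and the 2 higher in Th17_23 are Gzmb and S100a11, chosen because they hold the AP-1 motif. Capitals mark AGGTCA (the core of sites bound by ROR factors), TGANTCA (AP-1) and GCGTG (the aryl hydrocarbon receptor), searched on both strands, and none of the marked sites overlap.
Il17a, chr1:20730655-20730904, plus strand: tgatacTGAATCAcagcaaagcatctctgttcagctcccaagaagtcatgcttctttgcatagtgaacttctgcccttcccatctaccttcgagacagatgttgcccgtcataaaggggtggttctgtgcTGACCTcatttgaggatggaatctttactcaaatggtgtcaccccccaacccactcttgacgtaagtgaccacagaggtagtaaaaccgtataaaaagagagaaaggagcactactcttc
Il17f, chr1:20784271-20784520, minus strand: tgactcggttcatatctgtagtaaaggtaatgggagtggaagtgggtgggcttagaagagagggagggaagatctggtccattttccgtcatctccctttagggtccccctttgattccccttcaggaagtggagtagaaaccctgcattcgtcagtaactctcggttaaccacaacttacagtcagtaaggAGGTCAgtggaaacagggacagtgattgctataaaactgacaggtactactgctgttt
Ccl20, chr1:83116516-83116765, plus strand: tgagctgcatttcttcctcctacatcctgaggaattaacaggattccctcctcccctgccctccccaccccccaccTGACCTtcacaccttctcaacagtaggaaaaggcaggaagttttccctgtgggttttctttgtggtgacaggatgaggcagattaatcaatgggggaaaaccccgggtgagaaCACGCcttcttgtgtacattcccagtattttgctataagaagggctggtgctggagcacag
Cyp1a1, chr9:57697363-57697612, plus strand: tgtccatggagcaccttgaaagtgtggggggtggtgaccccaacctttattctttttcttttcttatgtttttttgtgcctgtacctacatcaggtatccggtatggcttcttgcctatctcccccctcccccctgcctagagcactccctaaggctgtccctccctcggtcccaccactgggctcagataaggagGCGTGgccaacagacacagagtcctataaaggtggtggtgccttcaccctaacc
Gzmb, chr14:56262335-56262584, minus strand: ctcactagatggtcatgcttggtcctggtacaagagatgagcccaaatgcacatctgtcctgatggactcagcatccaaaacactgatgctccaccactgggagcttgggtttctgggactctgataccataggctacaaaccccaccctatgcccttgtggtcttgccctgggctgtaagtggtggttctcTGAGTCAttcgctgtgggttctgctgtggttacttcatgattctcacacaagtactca
S100a11, chr3:93520246-93520495, plus strand: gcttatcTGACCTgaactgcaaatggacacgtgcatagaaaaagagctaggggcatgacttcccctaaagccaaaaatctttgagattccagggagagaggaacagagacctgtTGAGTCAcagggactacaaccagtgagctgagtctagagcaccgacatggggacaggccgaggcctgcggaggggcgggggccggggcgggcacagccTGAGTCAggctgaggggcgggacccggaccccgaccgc

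AGGTCA starts 120 bases before Il17a, 58 before Il17f and 174 before Ccl20, and also 243 before S100a11, a gene higher in Th17_23. TGANTCA starts 58 bases before Gzmb and 136 and 38 before S100a11, and also 244 before Il17a, a gene higher in Th17_b. It reads TGAGTCA in Gzmb and S100a11 but TGAATCA in Il17a. The open base N thus admits more than the usual AP-1 site, TGAGTCA or TGACTCA, here and in the shares below. GCGTG starts 54 bases before Cyp1a1 and 61 before Ccl20. Over whole promoters of 300 bases (250 before to 50 after the start), which matched 381 of the 479 genes higher in Th17_b and 440 of the 573 higher in Th17_23 with a change of 1 or more, AGGTCA was in 20.7% of the former and 18.4% of the latter, beside 14.5% of 8782 genes described and 18.1% of 27025 genes with a promoter. TGANTCA was in 7.09% and 11.6%, beside 5.74% of the genes described and 8.97% of all. GCGTG was in 51.4% and 47.7%, beside 57.5% and 35.2%. TTCNNNGAA, the STAT motif, was in 7.61% and 9.55% beside 8.26% and 9.55%, and GGAATTTCC, the NF-κB motif, in 0.525% and 1.36% beside 0.353% and 0.381%. The SMAD motif AGCCAGACA was in 0.262% and 0.909%, beside 0.285% and 0.433%, and its palindrome GTCTAGAC in 0.00% and 0.227%, beside 0.330% and 0.248%. These shares describe letters in a window and not binding.

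TGF-β receptors and their signalling genes were higher where TGF-β was given. TGF-β binds a pair of receptors, encoded by Tgfbr1 and Tgfbr2, which activate SMAD2 and SMAD3; these join SMAD4, and SMAD7, SKI and SnoN (Skil) restrain them. Tgfbr1 was at 41.9 and 29.2 FPKM in Th17_b and 3.00 and 3.14 in Th17_23 (log2 change 3.14 ± 0.20, adjusted p = 3.0e-06), and Tgfbr2 at 30.1 and 25.5 FPKM in Th17_b and 12.1 and 12.3 in Th17_23 (log2 change 1.12 ± 0.10). The activin receptor Acvr2a was at 17 and 11 FPKM in Th17_b and 0.969 and 0.978 in Th17_23 (log2 change 2.90 ± 0.20), and the co-receptor Tgfbr3 at 9.32 against 3.25 FPKM (log2 change 1.28 ± 0.11). Of the SMADs that carry the signal, Smad3 was at 28.3 against 11.1 FPKM (log2 change 1.28 ± 0.14), and Smad2 (0.46) and Smad4 (0.31) differed by less. Another SMAD gene, Smad5, differed by 0.57. Of the 14 receptor and SMAD genes at 1 FPKM or more, of 15 on the list, 12 were called higher in Th17_b and none higher in Th17_23, beside 24.2% and 33.1% of all genes. Acvr1 (0.18) and Eng (-0.31) were not called.

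Known TGF-β target genes were high in Th17_b, with exceptions. Skil was at 30.1 and 24.4 FPKM in Th17_b and 5.15 and 5.58 in Th17_23 (log2 change 2.14 ± 0.15), Smad7 at 15.6 and 12.5 FPKM in Th17_b and 3.55 and 3.25 in Th17_23 (log2 change 1.77 ± 0.10) and Ski at 57.4 against 21.9 FPKM (1.35). The feedback inhibitors Pmepa1 (24.4 against 2.39 FPKM, log2 change 2.93 ± 0.24) and Ldlrad4 (32.2 against 1.28 FPKM, log2 change 3.84 ± 0.19) and the integrin chain Itgae (CD103; 5.39 against 0.248 FPKM, log2 change 2.35 ± 0.35) separated the media without overlap. Tgfbi, a secreted matrix protein, was at 6.15 against 0.0107 FPKM. Of 24 targets at 1 FPKM or more, of 33 on the list, 15 were called higher in Th17_b and 7 higher in Th17_23. The shares over all genes described were 24.2% and 33.1%. The 7 include Sema4a (1.67 against 11.1 FPKM) and Id3 (24.8 against 78 FPKM, log2 change -1.63 ± 0.21). The ligand gene Tgfb3 was higher in Th17_23 (0.547 against 1.47 FPKM, -0.66). Tgfb1 was among the 7 at 85.7 against 104 FPKM (-0.28), but its call depended on the processing. Under quantile normalization its change was -0.05 (adjusted p = 0.73). With no filter and with median scaling it also missed the threshold (adjusted p = 0.052 in both). Without any 1 of the 4 libraries its change was -0.33 to -0.22, and it was not called. Foxp3, the regulatory T cell factor that TGF-β induces without IL-6, stayed at 0.752 and 0.660 FPKM in Th17_b and 0.442 and 0.294 in Th17_23, under the minimum of 1 FPKM in both media, beside 100.3 FPKM in iTreg.

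The 3 largest changes toward Th17_b were those of Nt5e, Aqp3 and Gpr15, which encode surface proteins. Nt5e, which encodes CD73, the enzyme that makes adenosine from AMP, was at 229 and 197 FPKM in Th17_b and 1.65 and 2.10 in Th17_23 (log2 change 6.22 ± 0.16, adjusted p = 3.1e-08). Aqp3, a channel for water and glycerol, was at 140.4 and 101 FPKM in Th17_b and 0.755 and 0.733 in Th17_23 (log2 change 6.11 ± 0.25). Gpr15, a receptor that guides T cells to the large intestine, was at 63.8 and 63 FPKM in Th17_b and 0.0452 and 0.0791 in Th17_23 (log2 change 5.92 ± 0.18). All 4 libraries fell clearly by medium for each. The 25 largest also held Pltp, a phospholipid transfer protein (37 against 0.482 FPKM, 4.67), Prss12, a secreted protease (24.7 against 0.118 FPKM, 4.51), Ctsw, the lymphocyte protease cathepsin W (111 against 4.06 FPKM, 4.47), and Pdpn, the mucin-like podoplanin (29.6 against 0.440 FPKM, 4.41). Serpinb1a, a protease inhibitor, was at 37.6 against 1.57 FPKM (3.93), Cxcr6, a chemokine receptor, at 32.7 against 1.43 FPKM (3.79), Cd101 at 31.4 against 1.38 FPKM, the metalloprotease Adam19 at 63.3 against 3.83 FPKM, the laminin chain Lamc3 at 12.6 against 0.0327 FPKM, the scavenger receptor Stab1 at 16.3 against 0.378 FPKM and Cldnd1 at 134 against 10.1 FPKM. The apolipoprotein L genes Apol9a (17.4 against 0.0852 FPKM) and Apol9b (26.7 against 0.315 FPKM) are near copies of each other, so their split is uncertain. Daw1 was listed at 0 in both Th17_23 libraries and at 12.4 and 18.1 FPKM in Th17_b (adjusted p = 5.7e-08).

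Genes of the aryl hydrocarbon receptor pathway were higher in Th17_b, as was the receptor, except for Il22. This receptor binds small molecules such as tryptophan products and switches on the cytochrome genes Cyp1a1 and Cyp1b1 and its own repressor Ahrr. Cyp1a1 was at 11.9 and 11.2 FPKM in Th17_b and 0.431 and 0.425 in Th17_23 (log2 change 3.14 ± 0.10, adjusted p = 4.5e-08), Cyp1b1 at 6.52 and 4.64 FPKM in Th17_b and 0.124 and 0.0463 in Th17_23 (log2 change 2.59 ± 0.12) and Ahrr at 3.19 and 3.53 FPKM in Th17_b and 0.205 and 0.277 in Th17_23 (log2 change 1.81 ± 0.08). Tiparp, another target, was at 16.7 against 10.5 FPKM (0.62), and Arnt, the receptor's partner, was not called (0.13). Of 8 pathway genes at 1 FPKM or more, of 10 on the list, 6 were called higher in Th17_b and 1, Il22, higher in Th17_23. The shares over all genes were 24.2% and 33.1%. Il22 is known to need this receptor in Th17 cells. It was high in the medium with 1.80 FPKM of Ahr and near 0 in the medium with 74.3. The part of the receptor in this difference was not tested.

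Genes of pathogenic Th17 cells were mostly higher in Th17_23. The published lists of pathogenic and non-pathogenic genes were drawn up from cultures of these kinds, so their direction here is not independent evidence. Of 14 pathogenic genes at 1 FPKM or more, of 16 listed, 11 were called higher in Th17_23, 2 higher in Th17_b and Icos (0.39) was not called, with a median change of -1.77. Called over all genes were 33.1% toward Th17_23 and 24.2% toward Th17_b. Csf2, which encodes GM-CSF, was low even where it was high, at 0.0287 and 0.153 FPKM in Th17_b and 2.67 and 4.15 in Th17_23 (log2 change -2.0 ± 0.29, adjusted p = 4.2e-04), and its chromosomal neighbour Il3 was listed at 0 in both Th17_b libraries and at 1.15 and 2.90 FPKM in Th17_23. Tbx21, which encodes T-bet, was at 0.171 and 0.295 FPKM in Th17_b and 13.8 and 17.6 in Th17_23 (log2 change -3.75 ± 0.12, adjusted p = 5.7e-08). The chemokines Ccl3 (0.407 and 1.74 against 21.7 and 19.1 FPKM, log2 change -3.45 ± 0.31) and Ccl4 (4.91 against 28.6 FPKM, -2.42) and the caspase gene Casp1 (0.489 and 1.04 against 9.68 and 11.7 FPKM, log2 change -2.74 ± 0.15) were higher in Th17_23. The 2 exceptions were Il7r, the IL-7 receptor chain that naive and memory cells keep (42.1 and 44.8 FPKM in Th17_b and 3.79 and 5.76 in Th17_23, log2 change 2.97 ± 0.19), and Lag3, an inhibitory receptor (135 and 132 FPKM in Th17_b and 37.9 and 40.8 in Th17_23, log2 change 1.74 ± 0.20). Of 7 non-pathogenic genes at 1 FPKM or more, of 8 listed, 6 were higher in Th17_b, among them Il6st, the shared receptor chain gp130 (32 against 5.27 FPKM, log2 change 2.40 ± 0.12), and Cd5l (1.54 against 0.691 FPKM, 0.59), whose change was 0.51 without Th17_b replicate 2 and 0.40 without Th17_23 replicate 1 and missed the threshold there (adjusted p = 0.071 and 0.096). The 1 exception was Il1rn, the natural antagonist of IL-1, at 0.458 and 0.596 against 5.87 and 7.94 FPKM (log2 change -2.36 ± 0.12).

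Most Th1 genes and 7 of 13 cytotoxic genes were higher in Th17_23, while Ifng was low in both media. Among all genes described, 33.1% were called higher in Th17_23 and 24.2% higher in Th17_b. Nkg7, a cytotoxic granule protein, was at 0.157 and 0.157 FPKM in Th17_b and 59 and 77.3 in Th17_23 (log2 change -5.89 ± 0.20, adjusted p = 5.7e-08). Gzmb, the killing protease granzyme B, was at 0.0587 and 0.0522 FPKM in Th17_b and 20.5 and 47 in Th17_23 (log2 change -4.93 ± 0.43). The IL-12 receptor chain Il12rb2 was at 1.08 and 2.39 FPKM in Th17_b and 26.8 and 34.1 in Th17_23 (log2 change -3.56 ± 0.23). Cxcr3, a Th1 chemokine receptor, was at 4.79 and 5.67 against 28.9 and 31.4 FPKM (log2 change -2.32 ± 0.27). Each stood well apart between the media. Of 16 Th1 genes at 1 FPKM or more, of 19 listed, 12 were called higher in Th17_23, all 12 by 1 or more, and 1 higher in Th17_b. They include Twist1 (0.432 against 13.8 FPKM, -3.38), Hlx (0.0832 against 4.34 FPKM, -2.30) and Stat4 (9.50 against 25.7 FPKM, log2 change -1.36 ± 0.15). Ifng, the Th1 cytokine, was at 0.0237 and 0 FPKM in Th17_b and 0.343 and 0.171 in Th17_23, under the minimum in both, beside 36.1 FPKM in Th1, and both media held an antibody to its protein. It was not called (adjusted p = 0.33), but with a pseudocount of 0.1 (-1.64, adjusted p = 0.0034) and in a fit of the Th17 media alone (-0.31, adjusted p = 0.035) it was called higher in Th17_23. In Th1 cells Tbx21 stood at 32.4 FPKM, Gzmb at 115 and Nkg7 at 75. Of 13 cytotoxic genes at 1 FPKM or more, of 22 listed, 7 were higher in Th17_23, with Prf1, which encodes perforin, at 0.356 against 4.05 FPKM and the inhibitor Serpinb9 at 1.14 against 6.93 FPKM, and 3 were higher in Th17_b: Ctsw and the neighbours Ctla2a (44.6 against 8.60 FPKM) and Ctla2b (25.9 against 2.01 FPKM). Natural killer markers Klra4 and Klra8 were listed at 0 in all 4 libraries, and the 5 natural killer markers summed to 0.483 and 0.918 FPKM in Th17_23 and to 0.0491 and 0 in Th17_b.

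Other cytokine genes were also higher with IL-23 and IL-1β. Il2, the T cell growth factor, was at 0.516 and 1.72 FPKM in Th17_b and 56.2 and 49 in Th17_23 (log2 change -4.72 ± 0.39, adjusted p = 1.2e-05). Both media held an antibody to its protein, with a dose stated for Th17_b alone. Il33, an alarmin usually made by epithelium and stroma, was at 0.0101 and 0.0541 FPKM in Th17_b and 16.5 and 26.2 in Th17_23 (log2 change -4.40 ± 0.15). Il13, a Th2 cytokine, was listed at 0 in both Th17_b libraries and at 2.45 and 9.89 FPKM in Th17_23 (adjusted p = 4.5e-04), while Il4, Il5 and Il9 lay under 1 FPKM and Gata3, the Th2 factor, at 3.11 and 3.82 against 4.71 and 4.50 FPKM. Inhba, which encodes the activin A subunit, was at 1.43 and 2.22 against 19.4 and 33.7 FPKM (log2 change -3.25 ± 0.18). Of 25 cytokine genes at 1 FPKM or more, of 33 listed, 14 were called higher in Th17_23 and 6 higher in Th17_b. The shares over all genes described were 33.1% and 24.2%, so the count toward Th17_b was near its share. The 6 hold Csf1, the macrophage growth factor (18.2 against 4.20 FPKM, log2 change 1.85 ± 0.28), Il16 (0.98) and Ltb (0.81) beside Il17a, Il17f and Il10. Among the 14, Areg, the repair factor amphiregulin, was at 1.29 against 6.43 FPKM, and Tnfsf11, which encodes RANKL, at 1.21 against 9.17 FPKM. Tnf (-0.78, adjusted p = 0.079) and Lif (-0.68) were not called. Tnf was called without Th17_23 replicate 2 (-1.18, adjusted p = 0.047), and in a fit of the Th17 media alone both Tnf (adjusted p = 0.037) and Lif (adjusted p = 0.030) were.

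Receptors for IL-1 ran in opposite directions. IL-1β signals through the receptor that Il1r1 encodes, while the product of Il1r2 binds IL-1 without signalling. Il1r1 was at 48.4 and 43.9 FPKM in Th17_b and 8.25 and 7.23 in Th17_23 (log2 change 2.43 ± 0.08, adjusted p = 5.7e-08), so it was lower in the medium that held IL-1β, and it was near 0 in the other 5 media, at a mean of 0.128 FPKM or less. Il1r2 was at 0.708 and 0.777 FPKM in Th17_b and 9.68 and 17.1 in Th17_23 (log2 change -2.99 ± 0.18). The family's genes stand in a row on chromosome 1 in the order Il1r2, Il1r1, Il1rl2, Il1rl1, Il18r1, Il18rap. Along this row Il1rl2 (-1.21) and Il18rap (-1.08) were higher in Th17_23, Il1rl1 was under the minimum, and Il18r1 was not called (log2 change 0.14 ± 0.20, 95% interval -0.31 to 0.59). Of 17 IL-1 family genes at 1 FPKM or more, of 21 listed, 9 were higher in Th17_23, beside 33.1% of all genes. Another 3, beside 24.2% of all genes, were higher in Th17_b: Il1r1, Traf6 and Myd88. Of these, Traf6 (0.41) and the adaptor gene Myd88 (0.37) missed the threshold without Th17_23 replicate 2 (0.39 and 0.29, adjusted p = 0.068 and 0.055). Traf6 also missed it without Th17_b replicate 1 (0.29, adjusted p = 0.12) and Myd88 without Th17_b replicate 2 (0.28, adjusted p = 0.054). Casp4, an inflammatory caspase like Casp1, was at 1.80 and 3.24 against 25.5 and 28.8 FPKM (log2 change -3.03 ± 0.15), while Pycard (-0.28), Aim2 (-0.10) and Gsdmd (-0.11) were not called. Pycard was called without Th17_23 replicate 1 (-0.50, adjusted p = 0.014) and in a fit of the Th17 media alone (adjusted p = 0.041).

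NF-κB target genes were mostly higher in Th17_23. IL-1 receptors signal through MyD88 to NF-κB, which induces its own inhibitors. Nfkbia, which encodes the inhibitor IκBα, was at 43.9 and 39.6 FPKM in Th17_b and 119 and 122 in Th17_23 (log2 change -1.51 ± 0.11, adjusted p = 4.5e-06), Tnfaip3, which encodes the inhibitor A20, at 9.02 and 9.34 against 22 and 23.1 FPKM (log2 change -1.21 ± 0.07), and Nfkbiz at 5.97 and 8.33 against 21.3 and 23.8 FPKM (log2 change -1.54 ± 0.14). The subunit gene Rel was at 8.16 and 8.71 against 27.9 and 34.3 FPKM (log2 change -1.76 ± 0.11) and Nfkb2 at 46.1 against 90.4 FPKM (-0.95). Of 29 target genes, all at 1 FPKM or more, 17 were called higher in Th17_23 and 4 higher in Th17_b. The shares over all genes were 33.1% and 24.2%. The median of the list was -0.48, and its largest changes were those of Ier3 (-2.21), Gadd45b (-1.92) and Rel. The 4 the other way were Ltb, Tnip2 (0.70), Relb (0.39) and Rela (0.34).

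**Figure D3:**
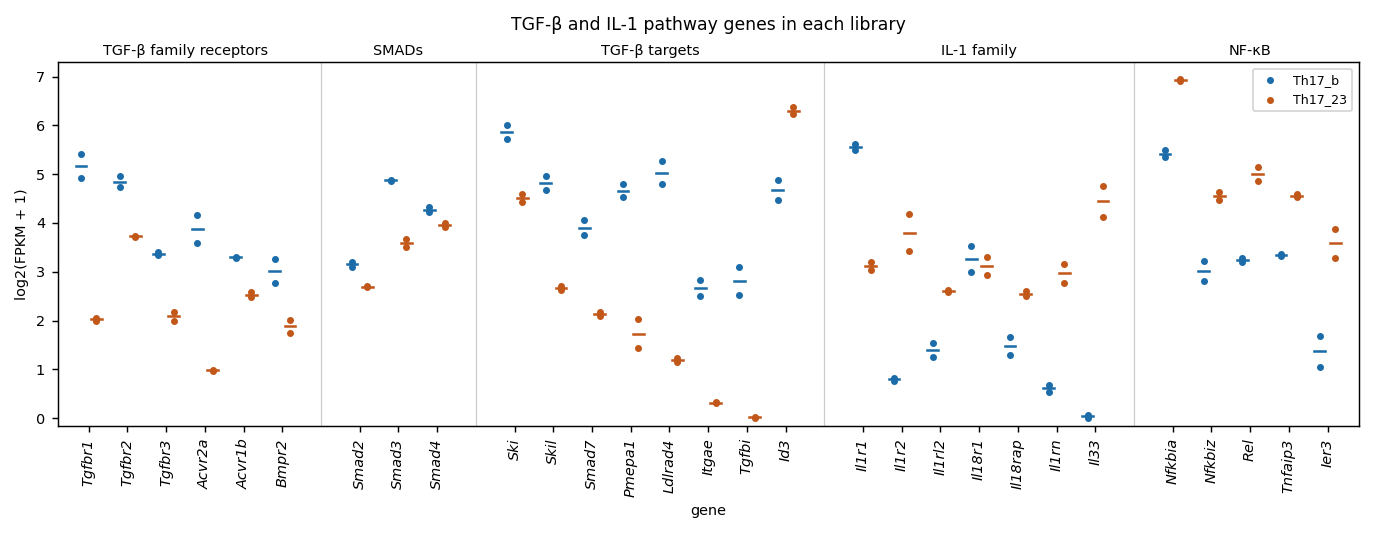
Level of genes of the TGF-β and IL-1 pathways in each library, as log2(FPKM + 1), with Th17_b in blue and Th17_23 in orange; points are libraries and lines their means. Receptors, SMADs and most targets of TGF-β lay higher in Th17_b, while Id3, Il1r2 and the NF-κB targets lay higher in Th17_23.

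Receptors for IL-6 and the STAT genes differed unevenly. Il6st (36.5 and 27.6 against 6.06 and 4.48 FPKM) and Il6ra, the IL-6 receptor (20.1 against 12.4 FPKM, 0.66), were higher in Th17_b, and Socs3, the feedback inhibitor of IL-6 signalling, was not called (35.8 against 26.5 FPKM, log2 change 0.41 ± 0.21, adjusted p = 0.12). Jak2 was at 54.7 and 54.7 against 181 and 179 FPKM (log2 change -1.70 ± 0.07). Targets of IL-2 and STAT5 were higher in Th17_23 in 9 of the 17 at 1 FPKM or more, of 18 listed, and higher in Th17_b in 2. Among all genes the shares were 33.1% and 24.2%. Both media held an antibody to IL-2, with its dose stated for Th17_b alone. Cish, a feedback inhibitor of STAT5 signalling, was at 8.75 and 12.3 against 27.1 and 57.5 FPKM (log2 change -1.83 ± 0.39) and Bcl2 at 5.45 against 13.9 FPKM (-1.19). Of the receptor chains, Il2rb was higher in Th17_b (229 against 117 FPKM, 0.97), and Il2ra was not called (154 and 147 against 199 and 263 FPKM, log2 change -0.60 ± 0.32, adjusted p = 0.14).

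Genes of resting T cells were mostly higher in Th17_b, and follicular genes were split. Of 16 quiescence and lymphoid homing genes, all at 1 FPKM or more, 12 were called higher in Th17_b and 3 higher in Th17_23. Foxo1, a factor of resting T cells, was at 78.5 and 62.4 FPKM in Th17_b and 17 and 16.3 in Th17_23 (log2 change 2.01 ± 0.09, adjusted p = 3.2e-07), Klf2, which keeps cells in circulation, at 17.8 and 21.9 against 6.91 and 5.09 FPKM (log2 change 1.58 ± 0.21), its target S1pr1 at 24.6 against 11 FPKM (1.10). Tcf7, which encodes TCF1, was at 326 and 346 against 159 and 157 FPKM (log2 change 1.08 ± 0.17). The 3 exceptions include Lef1 (32.3 against 62 FPKM, -0.92) and Slfn2 (-0.48), which missed the threshold without Th17_b replicate 1 (-0.24) and without either Th17_23 replicate (-0.49 and -0.46), with an adjusted p of 0.21, 0.074 and 0.094. Among follicular helper genes Cxcr5, the receptor that leads to B cell follicles (30.3 and 22 against 2.27 and 1.48 FPKM, log2 change 3.24 ± 0.21), Tox2 (44.9 and 39.8 against 4.05 and 2.74 FPKM, log2 change 3.31 ± 0.17), Bcl6 (25.6 against 9.17 FPKM, 1.41) and Sh2d1a (29.6 against 10.9 FPKM, 1.36) were higher in Th17_b, and Slamf6 (7.69 and 9.40 against 72.6 and 60.2 FPKM, log2 change -2.82 ± 0.20), Cd40lg (14.1 against 53.1 FPKM, -1.89) and Btla (26.2 against 88.2 FPKM, -1.73) higher in Th17_23. In all, 7 of 14 follicular genes at 1 FPKM or more, of 16 listed, were higher in Th17_b and 4 higher in Th17_23, beside 24.2% and 33.1% of all genes. Other factors higher in Th17_b were Sox4 (24.7 against 2.70 FPKM, 2.79), Klf10 (1.75), Jun (21.3 against 3.82 FPKM, log2 change 2.20 ± 0.23) and Jdp2 (12.9 against 0.808 FPKM, 2.94), while Batf3 (0.204 against 8.21 FPKM, log2 change -2.88 ± 0.56) and Jund (75.6 against 137 FPKM, -0.85) were higher in Th17_23.

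Homing and inhibitory receptors split between the media. Among all genes described, 24.2% were called higher in Th17_b and 33.1% higher in Th17_23. Of 17 chemokine and homing receptors at 1 FPKM or more, of 22 listed, 11 were higher in Th17_b, led by Gpr15, Cxcr6, Ccr6 and Cxcr5, and 4 higher in Th17_23, among them Cxcr3 and Cd44 (-0.68). Ctla4, an inhibitory receptor, was at 206 and 266 against 77.4 and 98.3 FPKM (log2 change 1.42 ± 0.14, higher in Th17_b). The inhibitory receptor gene Tigit (15.3 against 48.5 FPKM, -1.60) was higher in Th17_23. So was Cd200, which encodes a ligand and not a receptor (8.17 and 18.5 against 114 and 151 FPKM, log2 change -3.31 ± 0.18). Cd274, which encodes the ligand PD-L1, was higher there too (3.22 against 24.8 FPKM, log2 change -2.61 ± 0.24). Pdcd1, which encodes PD-1, was not called (0.21). Cd226, an activating receptor that shares ligands with TIGIT, was at 0.508 and 0.698 against 9.88 and 10.4 FPKM (log2 change -2.80 ± 0.10). Of 26 costimulatory and TNF family genes at 1 FPKM or more, of 28 listed, 13 were higher in Th17_23 and 8 higher in Th17_b; the former hold Tnfsf8 (3.54 and 6.06 against 60.6 and 59.1 FPKM, log2 change -3.42 ± 0.20), Tnfrsf8 (7.64 against 33.6 FPKM, -2.01), Fas (9.24 against 24.7 FPKM, -1.34) and Fasl (0.246 against 2.65 FPKM, -1.55).

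**Figure D4:**
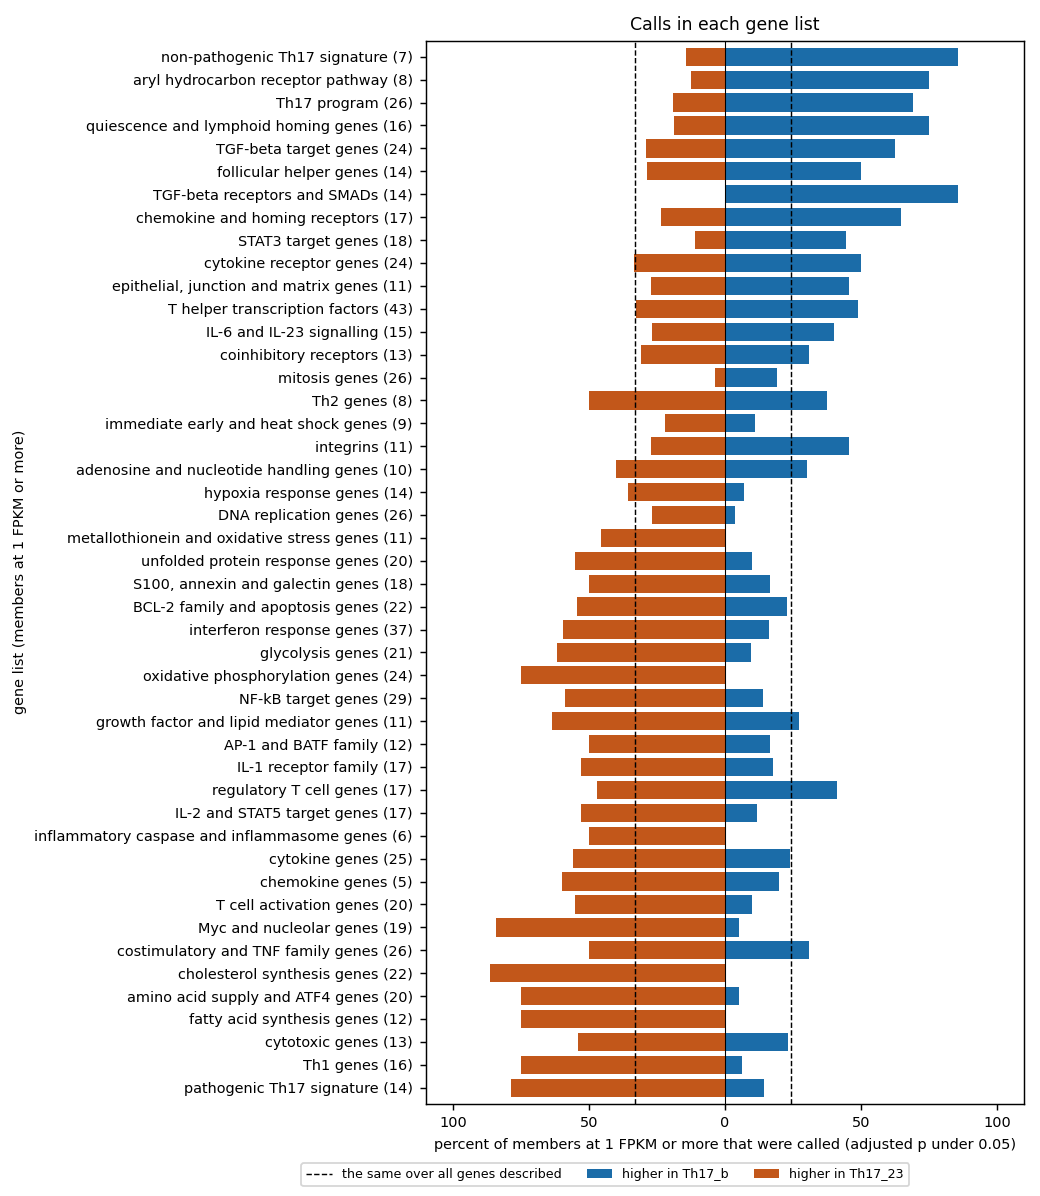
Percent of the members of each gene list at 1 FPKM or more that were called higher in Th17_b (blue, to the right) or higher in Th17_23 (orange, to the left), with the number of such members in brackets and dashed lines at 24.2% and 33.1%, the shares over all genes described. Lists are ordered by median change: TGF-β receptors and SMADs reached 12 of 14 toward Th17_b, and cholesterol synthesis genes 19 of 22 toward Th17_23.

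Metabolic genes were mostly higher in Th17_23, beside 33.1% of all genes described (24.2% were higher in Th17_b). Of 22 cholesterol synthesis genes at 1 FPKM or more, of 24 listed, 19 were called higher in Th17_23 and none higher in Th17_b, with a median of -0.76. Lss, lanosterol synthase, was at 12.5 and 15.3 against 39.9 and 50.8 FPKM (log2 change -1.63 ± 0.22, adjusted p = 2.7e-04). Idi1, an isomerase of the same pathway, was at 52.2 against 130.1 FPKM (-1.30). Fatty acid genes moved alike in 9 of 12 at 1 FPKM or more, of 14 listed, and none was higher in Th17_b. Scd1, which makes monounsaturated fatty acids, was at 0.453 and 1.25 FPKM in Th17_b and 19.7 and 32.5 in Th17_23 (log2 change -3.86 ± 0.27). Fads2 was at 9.09 and 11.7 against 46.1 and 57.7 FPKM (log2 change -2.21 ± 0.24) and Fasn at 35 against 70.6 FPKM (-0.99), while Srebf1, which encodes the lipid synthesis factor SREBP1, was not called (-0.06). Of 20 amino acid supply and ATF4 genes at 1 FPKM or more, of 23 listed, 15 were higher in Th17_23, among them Asns, asparagine synthetase (4.40 and 5.79 against 19.9 and 35.5 FPKM, log2 change -2.19 ± 0.18), Phgdh, the first enzyme of serine synthesis (68 against 155 FPKM, -1.18), and Atf4 (75.9 against 134 FPKM, -0.82). Asns stood at 105 FPKM in Th0, above both Th17 media.

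Growth and energy genes showed the same side with smaller changes. Among all genes described, 33.1% were called higher in Th17_23 and 24.2% higher in Th17_b. Of 19 Myc and nucleolar genes at 1 FPKM or more, of 20 listed, 16 were called higher in Th17_23 (median -0.75), with Ncl (114 against 198 FPKM, -0.78) and Npm1 (789.5 against 1412 FPKM, -0.84), although Myc itself was not called (91.5 and 86 against 128 and 124 FPKM, log2 change -0.50 ± 0.32, adjusted p = 0.21) and Odc1 was higher in Th17_b (0.73). Of 24 oxidative phosphorylation genes, 18 were higher in Th17_23 and none higher in Th17_b (median -0.47), and no member reached a change of 1. Under quantile normalization 12 were higher in Th17_23 and 1 higher in Th17_b. Without Th17_23 replicate 2, 11 were called. Of 21 glycolysis genes, 13 were higher in Th17_23, led by the glucose transporter Slc2a3 (10.8 and 13.2 against 40.4 and 45 FPKM, log2 change -1.75 ± 0.20) and hexokinase Hk2 (11.5 against 33 FPKM, -1.45), and 2 higher in Th17_b. Without Th17_b replicate 2, 8 were higher in Th17_23. Abundant chaperone genes were higher in Th17_23 too: Hspd1 was at 136 against 361 FPKM (-1.41), Hspe1 at 138 against 303 FPKM (-1.13) and Hsp90aa1 at 216 against 442 FPKM (-1.03). Of 20 unfolded protein response genes, 11 were higher in Th17_23 and 2 higher in Th17_b, none by 1 or more. Without Th17_b replicate 1, 5 were higher in Th17_23. The metallothioneins Mt1 (7.96 and 12.6 against 55.6 and 48.3 FPKM, log2 change -2.26 ± 0.28) and Mt2 (3.27 against 18.5 FPKM, -2.22), which bind zinc, were higher in Th17_23.

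Cell cycle genes were the most alike. Of 26 mitosis genes, 20 were not called, 5 were called higher in Th17_b and 1 higher in Th17_23, beside 57.3% called over all genes described. Higher in Th17_b were 14 under quantile normalization, 8 under median scaling and 3 without Th17_b replicate 1, Th17_b replicate 2 or Th17_23 replicate 2. In a fit of the Th17 media alone 7 were higher in Th17_b and 5 higher in Th17_23. Top2a, a topoisomerase of dividing cells, was not called (203 and 208 against 189.9 and 194 FPKM, 95% interval -0.12 to 0.32). Of 26 DNA replication genes, 18 were not called and 7 were higher in Th17_23 (33.1% over all genes), led by Orc1 (-0.77). Without Th17_b replicate 1, 2 were, and in a fit of these media alone 15 were. Cdkn1a, the cell cycle inhibitor p21, stood out at 11.7 and 18.9 FPKM in Th17_b and 75.2 and 106 in Th17_23 (log2 change -2.51 ± 0.31, adjusted p = 1.5e-04). Of other p53 and apoptosis genes, Bax was at 69.5 and 85.9 against 186 and 176 FPKM (log2 change -1.22 ± 0.15) and the survival gene Bcl2l1 at 24 against 57.3 FPKM (-1.21). On that list 12 of 22 genes were higher in Th17_23 and 5 higher in Th17_b, or 3 in a fit without the table term. The shares over all genes were 33.1% and 24.2%.

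Among the most abundant genes with a change of 1 or more, S100a6, a calcium-binding protein gene, was at 12.6 and 25.8 FPKM in Th17_b and 324 and 409 in Th17_23 (log2 change -4.26 ± 0.39, adjusted p = 2.6e-05) and S100a11 at 97.3 and 152 against 244 and 376 FPKM (log2 change -1.31 ± 0.19). Their neighbour S100a4 was at 3.02 and 6.97 against 26.3 and 38.8 FPKM (log2 change -2.54 ± 0.50). Ly6a, the surface antigen Sca-1, was at 208 and 372 against 503 and 693 FPKM (log2 change -1.08 ± 0.24), and the interferon-induced Ifitm2 at 6.11 and 11.8 against 128 and 143 FPKM (log2 change -3.84 ± 0.27). Among all genes described, 33.1% were called higher in Th17_23 and 24.2% higher in Th17_b. Of 37 interferon response genes at 1 FPKM or more, of 49 listed, 22 were called higher in Th17_23 and 6 higher in Th17_b, or 3 without Th17_23 replicate 1; Ifih1 (0.748 against 14.6 FPKM, -3.16) and Oas3 (0.683 against 8.58 FPKM, -2.51) led the former and Ifi47 (82.5 against 30.0 FPKM, 1.43) the latter. In Th17_b the 8 most abundant were Il17a, Tcf7 and Ctla4, with the values already given, and Capg, an actin capping protein (577 and 541 against 165 and 216 FPKM, log2 change 1.56 ± 0.14), Rgs10, a G protein regulator (334 and 315 against 59.4 and 70.5 FPKM, log2 change 2.31 ± 0.15), Ptms (263 against 83.2 FPKM, 1.65), Malt1, which links the T cell receptor to NF-κB (246 against 115 FPKM, 1.09), and Arhgap45 (228 against 106 FPKM, 1.09). Ybx3 (-1.29) and Snhg6 (-1.62) were among the most abundant higher in Th17_23. The 25 largest changes toward Th17_23 also held Lum, the matrix protein lumican (0.177 and 0.590 against 35.8 and 60.7 FPKM, log2 change -5.12 ± 0.18), Pdzk1ip1 (0.0894 against 29 FPKM, -4.75), the growth factor receptor Egfr (0.316 and 0.478 against 21.8 and 19.5 FPKM, log2 change -3.95 ± 0.11), the receptor pair Lilrb4a (0.158 against 19.5 FPKM) and Lilr4b (0.0413 against 12.5 FPKM), which are near copies, the glutamate transporter Slc17a6 (0.453 against 15.6 FPKM), the T cell receptor adaptor Trat1 (0.655 against 17 FPKM, -3.43) and Cth, which makes cysteine (0.539 against 15.1 FPKM, -3.38).

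Some genes with large changes lay side by side. Along the chromosomes, 10870 pairs of neighbours could be formed from 10891 genes described that have a position in a RefSeq annotation of another build, used for gene order alone. Genes not described were passed over. In 157 pairs both genes differed by 1 or more to the same side, and in 48 to opposite sides. The same-side pairs form 113 runs with 270 genes, of 1052 with a large change. There were 44 runs toward Th17_b and 69 toward Th17_23, and 33 runs hold 3 genes or more. Whether this is more than a random order would give was not tested. The longest toward Th17_23 were S100a3, S100a2, S100a4, S100a6 and S100a11 on chromosome 3 and 5 genes from Ifi209 to Fh1 on chromosome 1. Others were Csf2, Il3 and Acsl6 on chromosome 11, Mt3, Mt2 and Mt1 on chromosome 8, Slamf1, Cd84 and Slamf6 on chromosome 1, Dpp4, Fap and Ifih1 on chromosome 2, and Dcn and Lum on chromosome 10. Toward Th17_b they include Ccl20, Daw1 and Pid1 on chromosome 1, Cpox, Gpr15 and Cldnd1 on chromosome 16, and Galnt12, Col15a1 and Tgfbr1 on chromosome 4. Some of these neighbours have unrelated products: Daw1 (12.4 and 18.1 against 0 and 0 FPKM) is an assembly factor of cilia, and Cpox (74.6 and 79 against 10.2 and 10.7 FPKM, log2 change 2.76 ± 0.17) an enzyme of heme synthesis. Neighbours that are copies of each other, such as the Apol, Gstt, Ifitm and Ly6 genes, can share reads, and no source states whether reads were counted by strand, so overlapping neighbours cannot be told apart; neither point was tested for these runs.

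The other media show these genes in libraries that did not form the changes. Those libraries did enter the fit that set the spread behind the calls. Of the 479 genes higher in Th17_b by 1 or more, 415 (86.6%) were higher in iTreg, which held TGF-β, than in Th0 in both tables, beside 33.2% of all genes described, with a median change of 1.03. Of the 573 higher in Th17_23, 436 (76.1%) were lower in iTreg than in Th0 in both tables, beside 55.5% of all. With IL-27 and TGF-β the shares were 68.5% higher and 59.2% lower, beside 38.4% and 47.6% of all. For Th1 and Th2, which held no added TGF-β, 29.4% and 30.5% of the 479 were higher than Th0, beside 25% and 23.4% of all, and 28.8% and 54.1% of the 573 were lower, beside 46.0% and 48.9%. The changes from Th0 share the Th0 libraries. iTreg also received IL-2, and other additives differ between these media as well, so the part of TGF-β was not tested.

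Levels over the 7 media place the differences. The 479 genes had a median of 15.3 FPKM in Th17_b and 3.45 in Th17_23, beside 3.38 in Th0 and 12.0 in iTreg, so Th17_23 lay at the level of Th0. The 573 genes had a median of 11.7 FPKM in Th17_23 and 2.82 in Th17_b, beside 7.42 in Th0 and 2.82 in iTreg, so here Th17_b lay below Th0. Among the genes named, Cd200, Tnfsf8, Trat1, Scd1 and Ifitm2 stood at 72.9, 56.4, 22.5, 23.5 and 81.6 FPKM in Th0, while Il22, Lum and Il33 stood at 0, 0 and 0.0248. By their choice the 479 and the 573 genes differ between the Th17 media, which by itself raises the shares that follow. Of the 479, 239 (49.9%) had their highest mean of the 7 media in Th17_b, beside 15.4% of all genes described, and of the 573, 352 (61.4%) had it in Th17_23, beside 27.5%. Il1r1 and Serpinb1a were near 0 outside the Th17 media, with 0.890 FPKM of Serpinb1a in iTreg as the highest, whereas Nt5e reached 356 FPKM and Ctsw 206 in iTreg, and Gpr15 65.8 and Pltp 38 in IL-27 with TGF-β.

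**Figure D5:**
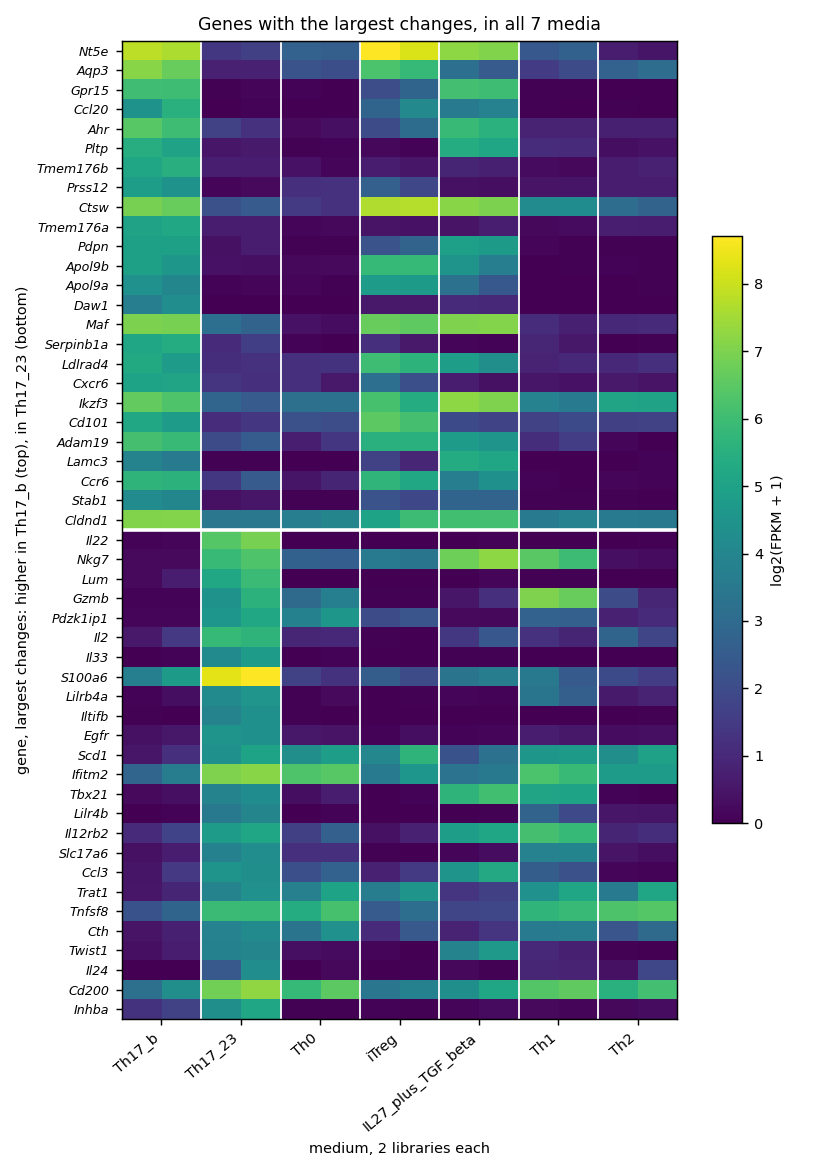
Level of the 25 largest changes in each direction in all 14 libraries, as log2(FPKM + 1) by color, with 2 libraries side by side for each of the 7 media. The upper genes, high in Th17_b, include many that were also high in iTreg or in IL-27 with TGF-β; of the lower genes, some were high in Th17_23 alone, such as Il22, Lum and Egfr, and others were low in Th17_b and high in Th0, such as Cd200 and Tnfsf8.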

How the data were processed

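The expression values cover 14 libraries of mouse CD4+ T cells, a pair for each of 7 media, and the report concerns 4 of them. Per the labels' protocols, the RNA was made into TruSeq libraries. TopHat2 2.0.3, Cufflinks 1.3.0 and mm9 are named, without their roles, per the submitters' processing notes. The authors deposited FPKM in 2 tables, 1 for each replicate number. Their scaling, and how they treated strand and reads shared by genes, are not given in the sources used here. FPKM of 30028 transcripts were summed to 23298 genes. An accession named 98.5% of the transcripts, 241 took the table's symbol and 216 kept their own identifier.

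FPKM carry no read totals, but values at or under 0.15 FPKM fall on steps of whole reads. Against Th17_b replicate 1, between 68.6% and 72.5% of the transcripts compared had a ratio within 1% of that of whole reads, from 1 to 6 on each side. Depth relative to that library was 0.750 for Th17_b replicate 2 and 0.966 and 0.829 for Th17_23. Since only relative depth is known, no counting interval is given.

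Tests used limma 3.58.1 in R 4.3.3 on log2(FPKM + 1), over the 11511 genes averaging 1 FPKM or more in any medium. All 14 libraries entered 1 fit (lmFit, contrasts.fit, eBayes with a trend) with medium and table as terms, which left 6 residual and 3.37 prior degrees of freedom. P-values are two-sided and Benjamini-Hochberg adjusted over the 11511 genes, of which 10963 are described. The procedure was tested on simulated data. Gene lists are given as counts and medians beside all genes described, with no test of their own. The rule for named genes took the 25 largest changes in each direction, without unnamed genes, ribosomal protein genes and small RNAs. It also took the 8 most abundant with a change of 1 or more in each direction, up to 5 called members of each list in each direction, and a list of Th17 genes whatever their values. Part of these are printed, and further list members and neighbours were named after their values were seen. Some genes are counted in the lists and not reported by name here. The members, lists and rule were chosen with earlier results of these data known. Promoters were read from RefSeq sequence of GRCm38.p6, matched by symbol. Alternatives left out the table term, set the pseudocount to 0.1, dropped the filter, set it at 5 FPKM or on the 2 Th17 media, scaled by quantiles or medians, dropped the trend, fitted the 2 Th17 media by themselves, took each gene's highest transcript, and left out each of the 4 libraries.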

Additional observations from a re-analysis of the deposited data

How the results depend on the processing

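Of 14 alternatives, all kept the number of genes called (6423 over the 11511 tested) within 1.5 times, and 1 moved the number with a log2 change of 1 or more, which was 1052: with a pseudocount of 0.1 it was 1587, 909 of them higher in Th17_23 beside 573, since a smaller pseudocount enlarges the changes of low genes. Leaving out 1 library, where the lone library left is assumed to vary like the other media, gave 4644 to 5182 genes called, 2118 to 2202 higher in Th17_b and 2499 to 3064 higher in Th17_23, and 1021 to 1131 with a change of 1 or more (468 to 500 and 553 to 631). Scaling moved the median of all genes by under 0.1; under quantile normalization 49.6% of the calls were higher in Th17_b, beside 42.0%. The tables are the replicate numbers: replicate 1 minus replicate 2 correlated at 0.136 between the media across genes, and at -0.137 to 0.357 over all pairs of media, so the numbers are not shown to pair the samples. Without the replicate block 5693 genes were called (2379 and 3314).

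Of 226 genes named, 204 were called, 196 of these kept call and direction under each alternative that tested them, 8 lost the call under at least 1, and none reversed. A filter or a left-out library removed 18 of the 226 from 1 or 2 alternatives. Among those not called, 14 gained a call under at least 1: Eng, Foxp3, Icos, Ifng, Il23r, Il2ra, Lif, Myc, Pdcd1, Pycard, Socs3, Stat3, Tnf and Top2a. Reversals were of genes not called. Srebf1 was 0.11 under quantile normalization and -0.13 to 0.0048 with 1 library left out. With 1 library left out, Il18r1 was -0.047 to 0.33 and Il4 -0.078 to 0.19. Both media hold 2 libraries, depth is known only as a ratio, and genes near 0 FPKM rest on few reads.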
